A study of Homo sapiens with 4 samples.

Results

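Bile acid and organic ion solute carriers are the membrane proteins that move bile acids, steroid conjugates, prostaglandins, carnitine and many drugs into and out of cells. They were followed here in Huh7, an established human line of hepatocellular carcinoma cells. The members are all genes with a probe set of exactly 1 gene symbol that starts with SLC10A, SLCO, SLC22A, SLC47A or SLC51, without antisense genes and pseudogenes. This gave 42 probe sets for 41 of the 22395 genes measured, with 19 members in SLC22A, 11 in SLCO, 7 in SLC10A, 2 in SLC47A and 2 in SLC51. SLCO1B3 alone had more than 1 probe set, and each gene was read from the probe set that had its highest mean signal.

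Both groups were Huh7 cells transfected with a plasmid: pcFLAG-hSTYK1, which carries human STYK1, a receptor-like kinase, in 2 STYK1 arrays, and pcFLAG in 2 control arrays. Whole-transcript arrays measured the RNA after biotin labelling, and each value is the deposited log2 signal of a probe set. The labels give no time after transfection and do not say whether replicate arrays stem from separate cultures, so the spread within a group, and every p-value, may be technical. In short, 4 carriers had a clear signal in these cells (SLC51B, SLCO4C1, SLC22A9 and SLC47A1), most of the others lay near or under background, and no carrier differed between the groups past the threshold of the test.

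In hepatocytes, bile acids enter from portal blood through the sodium-coupled carrier SLC10A1 and the organic anion transporters SLCO1B1 and SLCO1B3, leave into bile through ABC pumps, and can return to blood through the heterodimer of SLC51A and SLC51B. SLC22 carriers exchange organic anions, organic cations and carnitine, and SLC47 carriers extrude organic cations against protons. The farnesoid X receptor, a nuclear receptor for bile acids, drives SLC51A and SLC51B.

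The arrays as a whole set the frame for the carriers. Array medians over 53617 probe sets were 0.615 to 0.629, and any pair of arrays correlated at a Pearson r of 0.985 to 0.987. A signal was read against a floor, set on each array at the 95th percentile of 462 probe sets for olfactory receptors. These genes were assumed to be silent in liver cells, which was not tested. The floor lay between 0.746 and 0.775. STYK1, the transfected gene, read 0.26 and 0.61 in the controls, under the floor. Its STYK1 arrays read 7.40 and 7.86, and their mean was 117-fold above the mean floor of the control arrays. This is a lower bound for the group means, not for each array. The log2 difference of STYK1 from the control values themselves was 7.19 (limma, adjusted p = 0.0373). That call was lost without any single array (adjusted p 0.558 and 0.347 without control replicates 1 and 2, and 0.427 and 0.724 without STYK1 replicates 1 and 2; limma), while the direction held. All 12 hepatocyte markers, ALB and APOB among them, and all 4 measured markers of hepatoblasts and liver cancer, such as AFP, lay above the floor. Of the markers of cells that carry other members of these families, 2 of 8 for kidney proximal tubule (SLC13A3 and SLC5A2), 2 of 7 for enterocytes (VIL1 and CDX2) and 3 of 7 for cholangiocytes (SOX9, KRT19 and SSTR2) lay above it, as did 0 of 4 for endothelial cells and 3 of 5 for immune cells (LYZ, CD68 and CD14). The defining kidney markers LRP2 and CUBN and the enterocyte marker FABP2 did not exceed it on any array. The summed log2 signal of the 8 kidney markers was 5.53 and 5.39 in the controls, against 5.57 and 5.23 in the STYK1 arrays, so the groups overlapped; that of the 7 enterocyte markers was 9.28 and 9.36 against 9.32 and 9.17, again with overlap. The sum of the 7 cholangiocyte markers was 12.92 and 12.88 in the controls, against 12.80 and 12.62 in the STYK1 arrays, lower in both. The 7 did not move together. Of them 5 were lower, while the other 2, AQP1 and SSTR2, were higher without overlap, by 0.13 and 0.16. The largest difference of the 7 was that of KRT19. KRT19, a keratin of bile duct cells, was the 1 of these 7 with an unadjusted p under 0.05, at a difference of −0.26 that did not pass (limma, unadjusted p = 0.0376, adjusted p = 0.979). That was 14.3% of the 7, where 3.72% of all genes and 5.73% of those above the floor had one. The 4 endothelial markers, all under the floor, also summed to lower values in both STYK1 arrays, 1.89 and 1.91 against 2.03 and 2.13. All arrays came from the Huh7 line, so these markers were read as genes of that line and not as a measure of other cell types. Any link between the markers and the carriers' values was not tested.

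The upstream sequences of 5 members are shown first because they stand for the 3 kinds of result below: SLC51B and SLCO4C1 had clear signals, SLC22A15 was the 1 member with an unadjusted p under 0.05 between the groups, where 3.72% of all genes have one, and SLCO1B3 and SLCO1B1 are hepatocyte uptake carriers with signals near or under the floor. Each is the 250 bases before the gene's start in RefSeq, build GRCh38.p14, read 5′ to 3′ on the gene's strand, and 29 of the 41 members had such an entry. Capitals mark AGGTCA, the half-site of many nuclear receptors, on either strand (TGACCT on the other). SLC51B lies at chr15:65045137-65045386 on the plus strand, SLCO4C1 at chr5:102296285-102296534 on the minus strand, SLC22A15 at chr1:115976263-115976512 on the plus strand, SLCO1B3 at chr12:20810455-20810704 on the plus strand and SLCO1B1 at chr12:21130944-21131193 on the plus strand.
SLC51B: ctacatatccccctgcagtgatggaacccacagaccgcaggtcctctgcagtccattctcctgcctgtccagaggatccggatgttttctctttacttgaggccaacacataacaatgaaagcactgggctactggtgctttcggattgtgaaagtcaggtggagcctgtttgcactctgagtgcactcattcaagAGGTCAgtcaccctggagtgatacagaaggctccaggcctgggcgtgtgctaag
SLCO4C1: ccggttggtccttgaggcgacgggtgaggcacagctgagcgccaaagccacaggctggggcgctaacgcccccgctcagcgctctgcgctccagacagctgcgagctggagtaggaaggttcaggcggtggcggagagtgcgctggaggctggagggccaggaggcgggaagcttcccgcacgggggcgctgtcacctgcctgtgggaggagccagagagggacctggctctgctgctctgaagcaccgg
SLC22A15: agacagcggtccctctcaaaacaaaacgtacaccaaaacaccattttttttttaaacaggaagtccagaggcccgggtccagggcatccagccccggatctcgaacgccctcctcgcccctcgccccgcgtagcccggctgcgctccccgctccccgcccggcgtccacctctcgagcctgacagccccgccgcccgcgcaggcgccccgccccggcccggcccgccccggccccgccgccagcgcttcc
SLCO1B3: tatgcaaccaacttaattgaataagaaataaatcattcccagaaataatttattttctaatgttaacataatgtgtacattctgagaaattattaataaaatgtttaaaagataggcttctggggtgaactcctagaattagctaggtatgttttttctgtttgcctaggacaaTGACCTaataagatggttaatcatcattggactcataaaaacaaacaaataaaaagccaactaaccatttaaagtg
SLCO1B1: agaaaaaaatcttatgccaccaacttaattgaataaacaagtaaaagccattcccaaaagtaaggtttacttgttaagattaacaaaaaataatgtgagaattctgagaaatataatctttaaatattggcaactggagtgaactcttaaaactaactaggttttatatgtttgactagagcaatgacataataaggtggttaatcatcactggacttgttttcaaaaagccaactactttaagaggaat
The AGGTCA motif, on either strand, was present in 12.1% of 27305 such windows of all genes and in 6 of the 29 member windows, those of SLC10A1, SLC22A7, SLC22A14, SLC51B, SLCO1B3 and SLCO3A1. The windows of SLCO1B1 and SLCO1B3 were identical at 182 of 274 aligned columns. G and C made up 28.4% of the SLCO1B3 window and 29.2% of that of SLCO1B1, against 52.8% for SLC51B, 69.2% for SLCO4C1 and 71.2% for SLC22A15, where the median over all windows was 58.0%. These matches describe the letters only.

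Of the 41 carriers, 17 lay above the floor on at least 2 arrays, a share of 41.5%, where 52.8% of all genes did. Of these, 13 exceeded it on all 4 arrays, and 22 of the 41 exceeded it on none. SLC51B, SLCO4C1, SLC22A9 and SLC47A1 had signals between 4.06 and 6.06 on every array, and no other member exceeded 1.92 on any. The plot of signals on each array shows these 4 genes apart from a band of members at the floor.

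**Figure D1:**
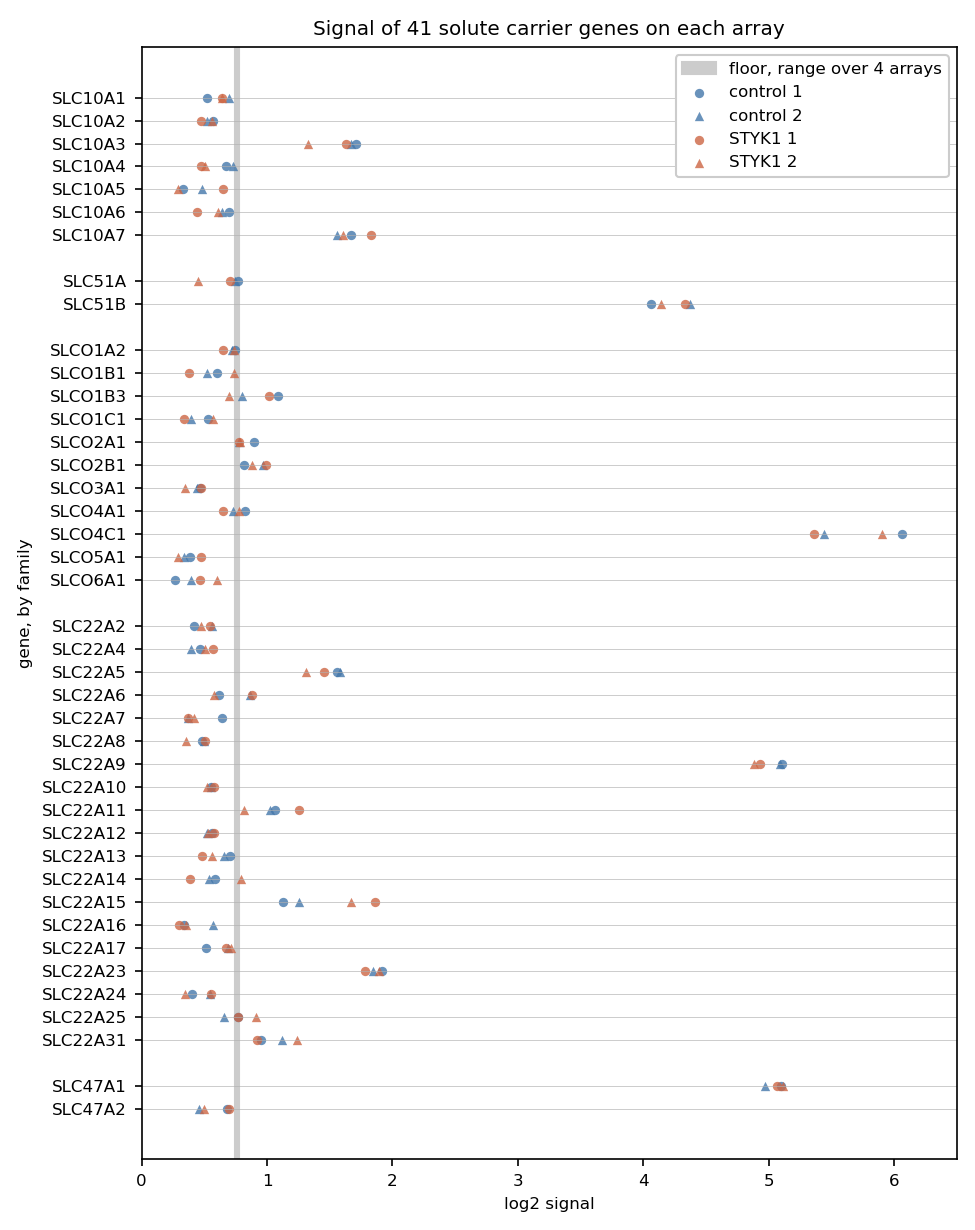
Log2 signal (horizontal axis) of the 41 carrier genes (rows, by family) on the 2 control arrays (blue) and the 2 STYK1 arrays (red), with circles for replicate 1 and triangles for replicate 2; the grey band is the range of the floor, 0.746 to 0.775. SLC51B, SLCO4C1, SLC22A9 and SLC47A1 lie at 4.06 or more on every array. The groups do not overlap for 10 members, SLC22A15 among them, or 24.4%, against 32.9% of all genes.

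Among the carriers that take bile acids up, SLC10A1, the sodium taurocholate cotransporter of hepatocytes, showed no signal above the floor. It read 0.52 and 0.70 in the controls and 0.64 in both STYK1 arrays, under the floor on all 4. SLC10A2, the ileal bile acid carrier, read 0.57 and 0.52 in the controls, against 0.47 and 0.56 in the STYK1 arrays, also under the floor on all 4. SLCO1B1, a hepatocyte carrier of bile acids, bilirubin and statins, read 0.60 and 0.52 in the controls, against 0.38 and 0.73 in the STYK1 arrays. It stayed under the floor on every array, and both control values lay between the STYK1 values. SLCO1B3, its close relative, read 1.09 and 0.80 in the controls, against 1.01 and 0.70 in the STYK1 arrays. It exceeded the floor on 3 arrays and fell under it on STYK1 replicate 2, and the groups overlapped. The other SLCO1B3 probe set lay under the floor throughout, between 0.27 and 0.54, and differed by 0.17 in the opposite direction, so the 2 probe sets gave no common direction.

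The bile acid exporter showed signal for 1 of its 2 subunits. SLC51B, the beta subunit, read 4.06 and 4.37 in the controls, against 4.33 and 4.14 in the STYK1 arrays, far above the floor on all 4. Both STYK1 values lay between the control values, and the difference was 0.020 with a 95% interval of −0.36 to 0.40 (limma, adjusted p = 1.00). SLC51A, the alpha subunit, read 0.77 and 0.74 in the controls, against 0.70 and 0.45 in the STYK1 arrays. Only control replicate 1 exceeded its floor. The groups did not overlap for SLC51A, with STYK1 replicate 2 lowest, and the difference of −0.18 had a 95% interval of −0.49 to 0.13 (limma, adjusted p = 0.979). It was −0.31 without STYK1 replicate 1 and −0.056 without STYK1 replicate 2.

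The remaining SLC10A genes include 2 with a signal above the floor on all arrays. SLC10A7, which acts in calcium homeostasis and bone development, read 1.67 and 1.56 in the controls, against 1.83 and 1.60 in the STYK1 arrays, with overlapping groups. SLC10A3, a member without a known substrate, read 1.71 and 1.67 in the controls, against 1.63 and 1.33 in the STYK1 arrays. Both STYK1 values were lower, that of replicate 2 by most. Its difference was −0.21 (standard error 0.13, limma, adjusted p = 0.979), and without STYK1 replicate 2 it was −0.056. SLC10A6, a carrier of steroid sulfates, and SLC10A4, a vesicular member of neurons, also had STYK1 values below both controls, at differences of −0.14 and −0.21, but on signals under the floor on all 4 arrays. With 1 array left out the difference of SLC10A6 ranged from −0.23 without STYK1 replicate 2 to −0.061 without STYK1 replicate 1, and that of SLC10A4 from −0.23 to −0.18. SLC10A5 was under the floor on every array as well.

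Of the other organic anion transporting polypeptides, SLCO4C1 had a clear signal. SLCO4C1, known from the basolateral side of the kidney proximal tubule as a carrier of digoxin, thyroid hormone and uraemic toxins, read 6.06 and 5.44 in the controls, against 5.36 and 5.90 in the STYK1 arrays. The arrays of each group spanned more than the difference between the groups, which overlapped. The difference was −0.12 with a standard error of 0.28, and its 95% interval of −0.85 to 0.61 was the widest among the 41 members (limma, adjusted p = 0.996). SLCO2B1, a carrier of steroid sulfates in liver and gut, read 0.82 and 0.97 in the controls, against 0.99 and 0.88 in the STYK1 arrays, just above the floor on all 4. SLCO2A1, the prostaglandin uptake carrier, read 0.90 and 0.78 in the controls, against 0.78 and 0.79 in the STYK1 arrays. SLCO4A1, which carries thyroid hormones, read 0.83 and 0.73 in the controls, against 0.65 and 0.78 in the STYK1 arrays, so that it passed the floor on 2 arrays, 1 in each group. SLCO6A1, a testis member, was 0.20 higher in the STYK1 arrays without overlap, at signals of 0.27 to 0.60 that all lay under the floor. SLCO1A2, SLCO1C1, SLCO3A1 and SLCO5A1 were under the floor on all arrays, with differences between −0.043 and 0.018.

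SLC22A15, a carrier of zwitterions such as ergothioneine and carnitine, had the largest difference of the 41 members. It read 1.13 and 1.25 in the controls, against 1.86 and 1.67 in the STYK1 arrays, above the floor on all 4. Both STYK1 values lay above both controls. The difference was 0.57 with a standard error of 0.11 and a 95% interval of 0.28 to 0.87, or 1.49-fold. It did not pass (limma, adjusted p = 0.979, unadjusted p = 0.00431). With 1 array left out at a time, its difference ranged from 0.48 to 0.67.

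SLC22A9, the liver member known as OAT7, which exchanges sulfated steroids for short-chain fatty acids, read 5.10 and 5.09 in the controls, against 4.93 and 4.88 in the STYK1 arrays. The 4 values lay close together and both STYK1 values were lower. The difference was −0.19 with a standard error of 0.085 and a 95% interval of −0.41 to 0.032 (limma, adjusted p = 0.979, unadjusted p = 0.0787). Leaving out any 1 array gave −0.21 to −0.17. SLC22A5, the sodium-coupled carnitine carrier, read 1.56 and 1.58 in the controls, against 1.45 and 1.31 in the STYK1 arrays, again lower in both. Its difference was −0.19 (standard error 0.095, limma, adjusted p = 0.979, unadjusted p = 0.108), and without STYK1 replicate 2 it was −0.12.

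**Figure D2:**
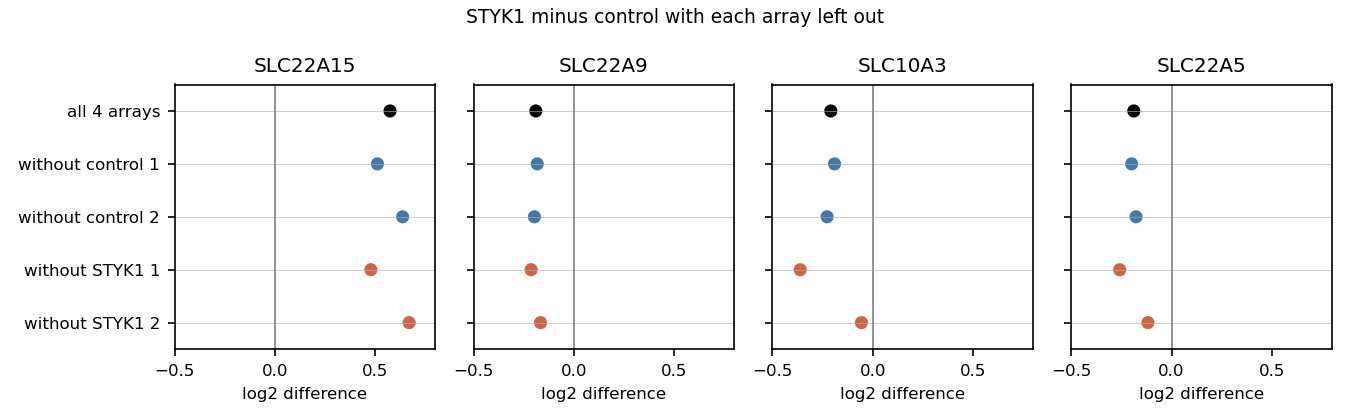
Log2 difference, STYK1 minus control (horizontal axis), for SLC22A15, SLC22A9, SLC10A3 and SLC22A5, with all 4 arrays (black), without 1 control array (blue) and without 1 STYK1 array (red). SLC22A15 stays between 0.48 and 0.67 and SLC22A9 between −0.21 and −0.17, while SLC10A3 moves from −0.36 without STYK1 replicate 1 to −0.056 without STYK1 replicate 2.

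SLC22A7, the hepatocyte carrier OAT2, read 0.64 and 0.37 in the controls, against 0.37 and 0.42 in the STYK1 arrays, under the floor on all 4. SLC22A23, another member without a settled substrate, read 1.92 and 1.85 in the controls, against 1.78 and 1.89 in the STYK1 arrays, with overlapping groups and a difference of −0.044. SLC22A11, the placental and renal carrier OAT4, read 1.06 and 1.02 in the controls, against 1.26 and 0.81 in the STYK1 arrays, so both controls lay between the STYK1 values. SLC22A31 read 0.96 and 1.12 in the controls, against 0.92 and 1.24 in the STYK1 arrays, likewise with the controls inside. SLC22A6, the renal carrier OAT1, exceeded the floor on control replicate 2 and STYK1 replicate 1 only, and SLC22A25 exceeded it on 3 arrays, at differences of −0.0097 and 0.13. SLC22A13, a urate and nicotinate carrier, had both STYK1 values below both controls, at 0.70 and 0.66 against 0.48 and 0.56, all under the floor. The renal members SLC22A2 (OCT2), SLC22A8 (OAT3) and SLC22A12 (URAT1), together with SLC22A4, SLC22A10, SLC22A16, SLC22A17 and SLC22A24, were under the floor on every array, and SLC22A14 exceeded it on 1.

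The proton-coupled exporters differed from each other in where they stood against the floor. SLC47A1, or MATE1, which passes organic cations such as metformin into bile and urine, read 5.10 and 4.97 in the controls, against 5.06 and 5.12 in the STYK1 arrays. The groups overlapped, and the difference of 0.057 had a 95% interval of −0.19 to 0.30 (limma, adjusted p = 0.994). SLC47A2, the renal MATE2, read 0.68 and 0.45 in the controls, against 0.69 and 0.49 in the STYK1 arrays, under the floor on all 4.

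Over the 41 members, no carrier differed past the threshold between the groups. Of the 41, 0 passed at an adjusted p under 0.05 (limma, adjusted over all 53617 probe sets), where 0.00447% of all genes and 0.00187% of all probe sets did. At an unadjusted p under 0.05 there was 1 member, SLC22A15, or 2.44%, against 3.72% of all genes. Among members above the floor it was 1 of 17, or 5.88%, against 5.73% of all genes above the floor. SLC22A15 was on the higher side, where 1.79% of all genes fell. On the lower side there were 0 members, where 1.93% of all genes fell. The groups did not overlap for 10 members, or 24.4%, against 32.9% of all genes. Of these 3 were higher (SLC22A15, SLC22A4 and SLCO6A1), where 16.7% of all genes were. The other 7 were lower (SLC10A3, SLC10A4, SLC10A6, SLC22A5, SLC22A9, SLC22A13 and SLC51A), where 16.2% of all genes were. Without regard to overlap 17 members were higher and 24 lower, or 41.5% higher, against 50.8% of all genes. Their median difference was −0.0097, against 0.0022 over all genes, and 0 reached 2-fold. With 2 arrays against 2, the smallest two-sided p of an exact permutation test is 0.333, and no such test is reported for a single carrier.

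**Figure D3:**
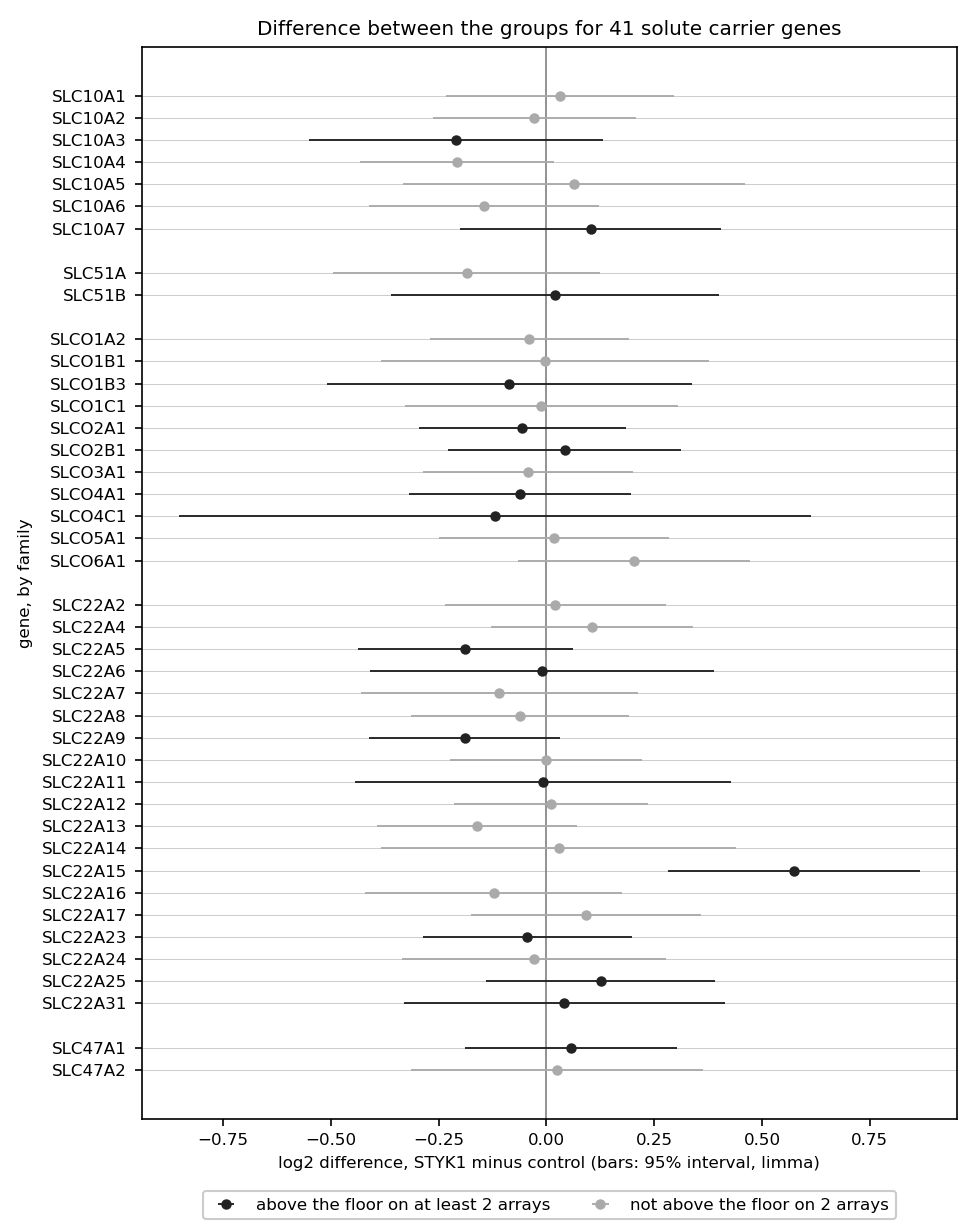
Log2 difference, STYK1 minus control (horizontal axis), for the 41 carrier genes (rows, by family), with bars for the 95% interval from limma; black marks members above the floor on at least 2 arrays and grey the others. The interval of SLC22A15, 0.28 to 0.87 before any adjustment, lies above 0, and the intervals of the other 40 members span 0.

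By family, 3 of 7 SLC10A members, 3 of 11 SLCO members, 8 of 19 SLC22A members, 2 of 2 SLC47A members and 1 of 2 SLC51 members were higher in the STYK1 arrays. The medians of their differences were −0.028, −0.040, −0.0080, 0.041 and −0.082 in that order. Centred on its own 4-array mean, the average member deviated by 0.013 and 8.2e-05 in the controls, against 0.0050 and −0.019 in the STYK1 arrays.

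Many of these genes lie in clusters, and the clusters held members with and without signal. In RefSeq's gene order, 18 of the 41 members adjoin another member with no other protein-coding gene between them, in 7 runs. The longest run, on chromosome 11, holds SLC22A6, SLC22A8, SLC22A24, SLC22A25, SLC22A10 and SLC22A9. In it SLC22A9 was above the floor on 4 arrays, SLC22A25 on 3 and SLC22A6 on 2, while SLC22A8, SLC22A24 and SLC22A10 were above it on none. Of the neighbours SLCO4C1 and SLCO6A1 on chromosome 5, SLCO4C1 exceeded the floor on 4 arrays and SLCO6A1 on none. The carnitine carrier SLC22A5 exceeded it on 4 arrays and its neighbour SLC22A4, an ergothioneine carrier, on none. On chromosome 12, SLCO1B3 exceeded it on 3 arrays, and SLCO1C1, SLCO1B1 and SLCO1A2 on none. SLC22A9 and SLC22A10, and SLCO1B1 and SLCO1B3, are close relatives in sequence, so each signal may hold some transcript of the relative.

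**Figure D4:**
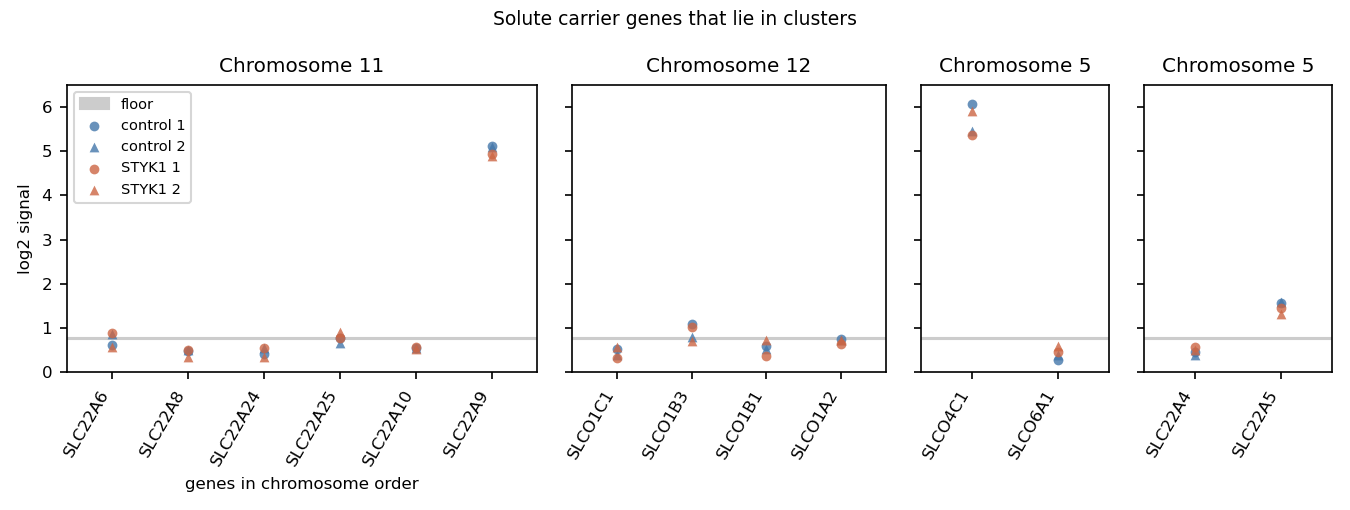
Log2 signal (vertical axis) on each array for carrier genes in chromosome order within 4 clusters, with the floor in grey, controls in blue, STYK1 arrays in red, circles for replicate 1 and triangles for replicate 2. SLC22A9, SLCO4C1 and SLC22A5 lie above the floor on all 4 arrays, and SLC22A8, SLC22A10, SLC22A24, SLCO6A1 and SLC22A4 on none; genes are spaced by order, not distance.

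Partners of the carriers were read from 4 lists. The efflux pumps and flippase that carry bile acids, phospholipids and conjugates onward had 11 of 12 measured members above the floor. ABCC2, the canalicular pump for conjugated bilirubin, read 7.04 ± 0.047 (SD, n = 2) in the controls and 7.17 ± 0.0098 (SD, n = 2) in the STYK1 arrays, without overlap. ABCB11, the bile salt export pump, was under the floor on all 4, at 0.51 and 0.60 against 0.50 and 0.61. Of the 12, 9 were higher and 3 lower, or 75.0% higher, against 50.8% of all genes. An unadjusted p under 0.05 (limma) was found for 0 of them, where 3.72% of all genes had one. The differences farthest from 0 were those of the sterol half-transporter ABCG8 at −0.28 and of ABCC1, an exporter of glutathione conjugates, at 0.26. Both had overlapping groups. With 1 array left out they ranged from −0.45 to −0.11 for ABCG8 and from 0.089 to 0.43 for ABCC1, nearest to 0 without control replicate 1 and farthest without control replicate 2 in both. ABCC2 and ABCB11 were singled out after their values were seen.

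Enzymes and binding proteins of bile acid synthesis gave 7 higher and 8 lower among 15 measured, or 46.7% higher, against 50.8% of all genes. Of the 15, 10 were above the floor and 0 had an unadjusted p under 0.05 (limma), where 3.72% of all genes had one. CYP27A1, the mitochondrial sterol 27-hydroxylase of the acidic pathway, read 5.68 and 5.89 in the controls, against 5.51 and 5.55 in the STYK1 arrays, so that the groups differed by −0.26 (standard error 0.11, limma, adjusted p = 0.979), or by −0.15 without control replicate 2. SLC27A5, which activates bile acids with coenzyme A, differed by 0.16 near the floor, and by 0.042 without STYK1 replicate 2.

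Among regulators of carrier genes and of bile acid signalling 13 of 19 were lower and the other 6 higher, or 31.6% higher, against 50.8% of all genes. The median was −0.098, against 0.0022 over all genes, and all 19 lay above the floor on at least 2 arrays. MAFG, a small MAF protein that represses bile acid synthesis genes, was the 1 member with an unadjusted p under 0.05, or 5.26% of the 19, where 3.72% of all genes and 5.73% of those above the floor had one. It read 2.35 and 2.47 in the controls, against 2.88 and 2.84 in the STYK1 arrays, 0.46 higher (standard error 0.093), which did not pass (limma, adjusted p = 0.979). The liver factor FOXA3 read 3.06 and 3.05 in the controls, against 2.73 and 1.73 in the STYK1 arrays, and its difference of −0.82 (standard error 0.34) did not pass (limma, adjusted p = 0.979). Its STYK1 arrays lay farther apart than the groups' means, and the difference was −1.32 without STYK1 replicate 1 and −0.32 without STYK1 replicate 2. NR0B2, the corepressor SHP that bile acids induce, read 2.22 and 2.59 in the controls, against 2.32 and 2.13 in the STYK1 arrays, with overlapping groups; it was singled out after its values were seen.

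Scaffold and trafficking proteins that hold carriers at the membrane gave 6 higher and 7 lower among 13 measured, or 46.2% higher, against 50.8% of all genes. Of the 13, 12 were above the floor and 0 had an unadjusted p under 0.05 (limma), where 3.72% of all genes had one. VPS33B, needed for apical sorting in hepatocytes, differed by −0.31 and read 2.22 and 2.34 in the controls, against 2.19 and 1.75 in the STYK1 arrays. STYK1 replicate 2 was lowest, and without it the difference was −0.093. BSG, basigin, a chaperone of monocarboxylate carriers, differed by −0.20, and by −0.12 without STYK1 replicate 2. Over the 4 lists the non-overlapping members numbered 1 of 12, 4 of 15, 6 of 19 and 3 of 13, where 32.9% of all genes did not overlap.

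**Figure D5:**
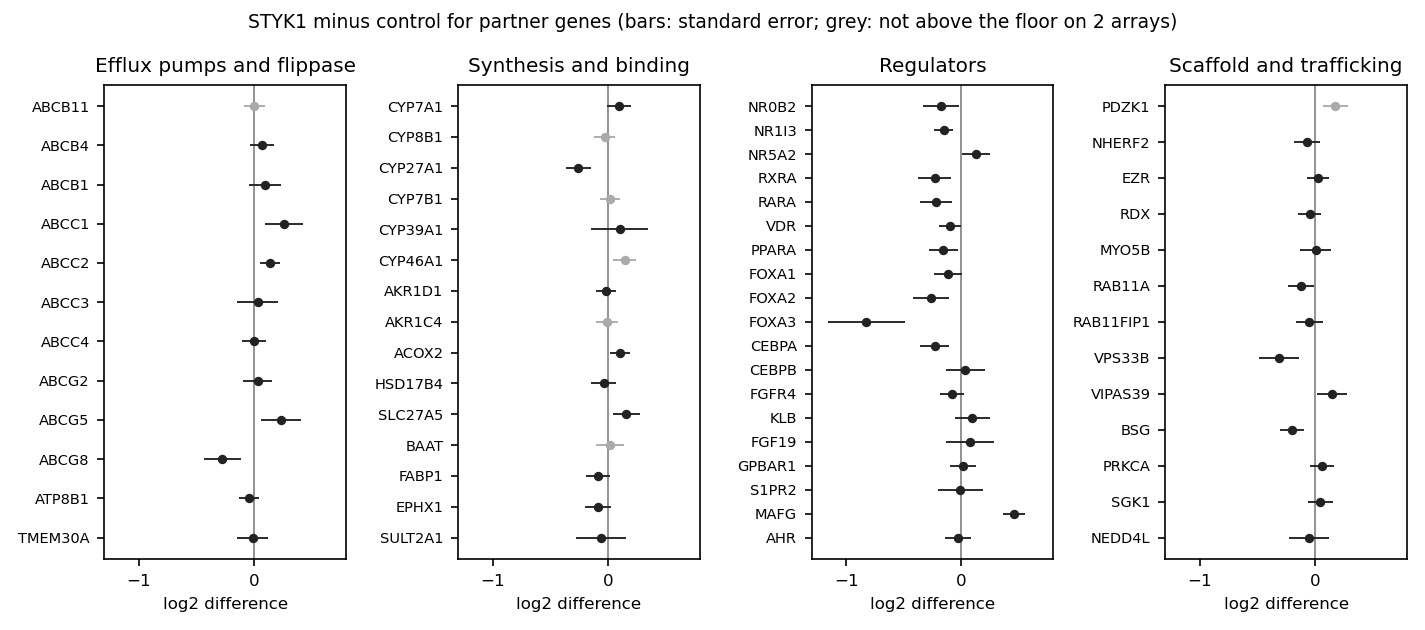
Log2 difference, STYK1 minus control (horizontal axis), with bars for the standard error from limma, for the measured genes of the 4 partner lists (rows); grey marks genes not above the floor on 2 arrays. Most points lie within 0.3 of 0, with FOXA3 at −0.82 (−0.32 without STYK1 replicate 2) and MAFG at 0.46 apart from the rest.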

How the data were processed

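RNA of 4 Huh7 samples was isolated with an RNeasy kit, amplified and labelled with biotin, as the labels' protocols say. A table of log2 signals with 4 columns, 1 per array, was deposited by the authors. Per the submitters' processing notes the Transcriptome Analysis Console was used; no version, summarization method or normalization is given in the sources read for this text. The log2 scale was inferred from the values, which reach 11.3, and processing that shrinks dim signals would lower differences near the floor.

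Probe sets were named from the platform's annotation: 23871 had 1 symbol, 1842 several and 27904 none here. Symbols and biotypes were updated by Entrez ID from RefSeq (GRCh38.p14), where all 41 members matched. No genome build is named for the table, so RefSeq served for names, gene order and the printed sequences only.

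Differences, STYK1 minus control, came from lmFit and untrended eBayes of limma 3.58.1 in R 4.3.3. Two-sided p-values were adjusted by Benjamini-Hochberg across the 53617 probe sets, with 0.05 as the threshold, and 95% intervals use its moderated standard errors. The model had 2 residual degrees of freedom and a prior of 2.71. It was tested on simulated data with changes larger than the difference of any carrier. That test does not cover differences of the carriers' size.

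The members, lists, floor and tests were chosen with earlier results of these data known. Named are members above the floor on 2 arrays, those with an unadjusted p under 0.05, the 10 with the largest differences and set carriers of hepatocytes and bile acid circulation, 1 of which was not analysed here. From each partner list came members with an unadjusted p under 0.05 and the 2 largest differences above the floor. The motif and printed windows were chosen after values were seen. Alternatives were each array left out, a replicate block, quantile normalization, trend and robust fits, a filter at the floor, the mean of a gene's probe sets and other floors. Leaving arrays out for genes of the partner lists was chosen after seeing the data. Other members are named to account for them.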

Additional observations from a re-analysis of the deposited data

How the results depend on the processing

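Most members had signals near or under the floor, and 2 arrays a group limit the precision. The STYK1 difference kept its direction in all 9 alternatives. The replicate block, trend, robust and floor-filter fits could not change the estimate itself, so its direction was open only in the others. Leaving out 1 array at a time gave 6.96 to 7.42 and ended its call. The lone array of a group was then assumed to vary like the other group. The labels link same-numbered arrays by their number only. Deviations of these arrays correlated at −0.044 over all probe sets, which does not settle whether they share a culture or batch. A fit with a replicate block gave STYK1 at 7.19 (limma, adjusted p = 0.0637) and 0 probe sets called. No carrier passed an adjusted p of 0.05 under any of the 10 alternatives (lowest among the named ones 0.917), and without each array in turn 1 to 2 had an unadjusted p under 0.05: SLC22A15 each time and SLC10A3 without STYK1 replicate 1. The median difference of the carriers ranged from −0.030 to 0.020 without single arrays. The count above the floor was 21 with the 90th percentile, 12 with the 99th and 13 when all 4 arrays had to exceed it.

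A carrier's difference could change only without an array, with quantile normalization or, for SLCO1B3, with the mean of its probe sets. Of 26 named carriers 10 kept their direction in every alternative and 16 did not. With 1 array left out, the differences of these ranged from −0.056 to 0.12 for SLC10A1, −0.074 to 0.018 for SLC10A2, −0.0084 to 0.21 for SLC10A7, −0.23 to 0.21 for SLC22A11, −0.10 to 0.0094 for SLC22A23, −0.12 to 0.20 for SLC22A31, −0.16 to 0.14 for SLC22A6 and −0.25 to 0.027 for SLC22A7. For the others they ranged from −0.0051 to 0.12 for SLC47A1, −0.14 to 0.18 for SLC51B, −0.18 to 0.17 for SLCO1B1, −0.24 to 0.071 for SLCO1B3, −0.11 to 0.0025 for SLCO2A1, −0.031 to 0.12 for SLCO2B1, −0.13 to 0.0018 for SLCO4A1 and −0.43 to 0.19 for SLCO4C1. SLCO1B3 also turned, to 0.040, with the mean of its 2 probe sets.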
